A study of Mus with 7 samples.

Results

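The genes described here are 30 genes of protein folding and quality control in the endoplasmic reticulum (ER), taken by symbol from a list of such functions among the 31053 genes of the deposited matrices, with no threshold on a measured value. By role they were 11 chaperones and cofactors, 4 disulfide isomerases, 4 genes for the stress sensors and their transcription factor, 7 genes of ER-associated degradation and 4 of the translocon and glycosylation machinery. All 30 had UMIs in every library. A mean over the 7 libraries of at least 10 counts per 1000000 UMIs (CPM) was reached by 28 of them and by 7300 genes in all; the sensor genes Ern1 and Eif2ak3 lay below it and are given by value, outside the counts. All 30 matched a RefSeq gene of the mouse build GRCm38, which is the build mm10 of the files, and positions are given in it.

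Proteins bound for secretion or for membranes enter the ER through a channel, fold there with the help of chaperones, and gain disulfide bonds and sugar chains. When unfolded protein accumulates, the chaperone BiP (Hspa5) leaves the sensors ATF6, IRE1 (Ern1) and PERK (Eif2ak3), which raise the transcription of chaperone and degradation genes, through ATF6 and XBP1, and slow translation. In macrophages this response is known to be linked to Toll-like receptor signalling, and LPS is a ligand of Toll-like receptor 4. Proteins that fail to fold are carried back to the cytosol by the HRD1 ligase complex (Syvn1, Sel1l, Herpud1, the derlins) and degraded.

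Single-cell RNA was sequenced with a 3′ kit that counts unique molecular identifiers (UMIs) from wild-type C57BL/6J mouse fetal liver-derived macrophages (FLMs), a self-renewing culture that grows in GM-CSF. How many livers the libraries came from is not given in the sources used here. Control cells (Con) were taken from growth medium with 10% serum and 30 ng/mL GM-CSF, before any treatment. All other cells spent 24 h in 0.25% serum with the same GM-CSF and either 8.3 µM albumin as vehicle (Veh) or 25 µM docosahexaenoic acid (DHA), an omega-3 fatty acid, complexed with the same 8.3 µM albumin. They were taken then (Veh.LPS.0 and DHA.LPS.0), or after that medium had been exchanged for 20 ng/mL LPS for 1 h (Veh.LPS.1 and DHA.LPS.1) or 4 h (Veh.LPS.4 and DHA.LPS.4). No library without LPS was taken at the later times, so LPS cannot be told apart from the exchange of medium or the added hours. Con and Veh.LPS.0 likewise differ in serum, albumin and a day of culture together.

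Each condition was 1 library, and all were collected together after staggered starts, so no test between conditions was possible. Each 95% interval of a level or ratio covers counting error only, not the spread between cultures or between cells. An interval of a share of cells takes the cells of 1 library as independent and also leaves out the spread between cultures. UMIs of a gene can cluster in cells, and such an interval is then too narrow. For Hspa5 the variance of UMIs per cell, at 20000 UMIs a cell, was 8.63 times the mean in Con. In DHA.LPS.0 it was 122 times the mean. Log2 ratios are followed by their interval of counting error, an exact binomial one, in parentheses. A level is the UMIs of a gene scaled to counts per 1000000 UMIs (CPM), summed over the kept cells of a library. A gene was counted as higher or lower in a comparison when its CPM differed by over 1.5-fold, which is 0.58 on the log2 scale, and the share of all genes past that limit is given beside the first count of each comparison. Between 692 and 3073 cells per library had over 20000 UMIs, at least 2000 genes and under 20% mitochondrial UMIs, with 22045775 to 125716982 UMIs in all and a median of 29369 to 56239 UMIs per cell. Mitochondrial UMIs of 20% or more marked 74.4 to 80.0% of barcodes in the DHA libraries and 29.0 to 54.7% in the others. The 9 macrophage marker genes summed to 5817 to 7089 CPM in every library, and no list of markers of another cell type exceeded 7.58 CPM. That was the plasma and B cell list in Veh.LPS.0, most of it Ighm, and the neutrophil list reached 6.99 CPM in DHA.LPS.4, all of it S100a8, with Alb, Ttr, Kit and Cpa3 at 0. Cells with no UMI of the division genes Mki67 and Top2a made up 1.86% of Con, 7.70 to 14.7% of the libraries at 0 and 1 h, 35.2% of Veh.LPS.4 and 34.0% of DHA.LPS.4. They numbered 54 in Con, 191 in Veh.LPS.0 and 88 in DHA.LPS.0. The LPS libraries held 329 (Veh.LPS.1), 117 (DHA.LPS.1), 350 (Veh.LPS.4) and 235 (DHA.LPS.4). These cells were picked at full depth, so their shares can vary with depth as well as with division. The median depth was 56239 UMIs in Veh.LPS.4 and 29631 in DHA.LPS.4. At 20000 UMIs a cell, Mki67 was seen in 39.4% of Veh.LPS.4 and 51.4% of DHA.LPS.4 cells with at most 49 Hspa5 UMIs. In cells with more Hspa5 the shares were 27.7% and 19.1%. Any pair of libraries shared 0 to 4 kept barcodes.

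**Figure D1:**
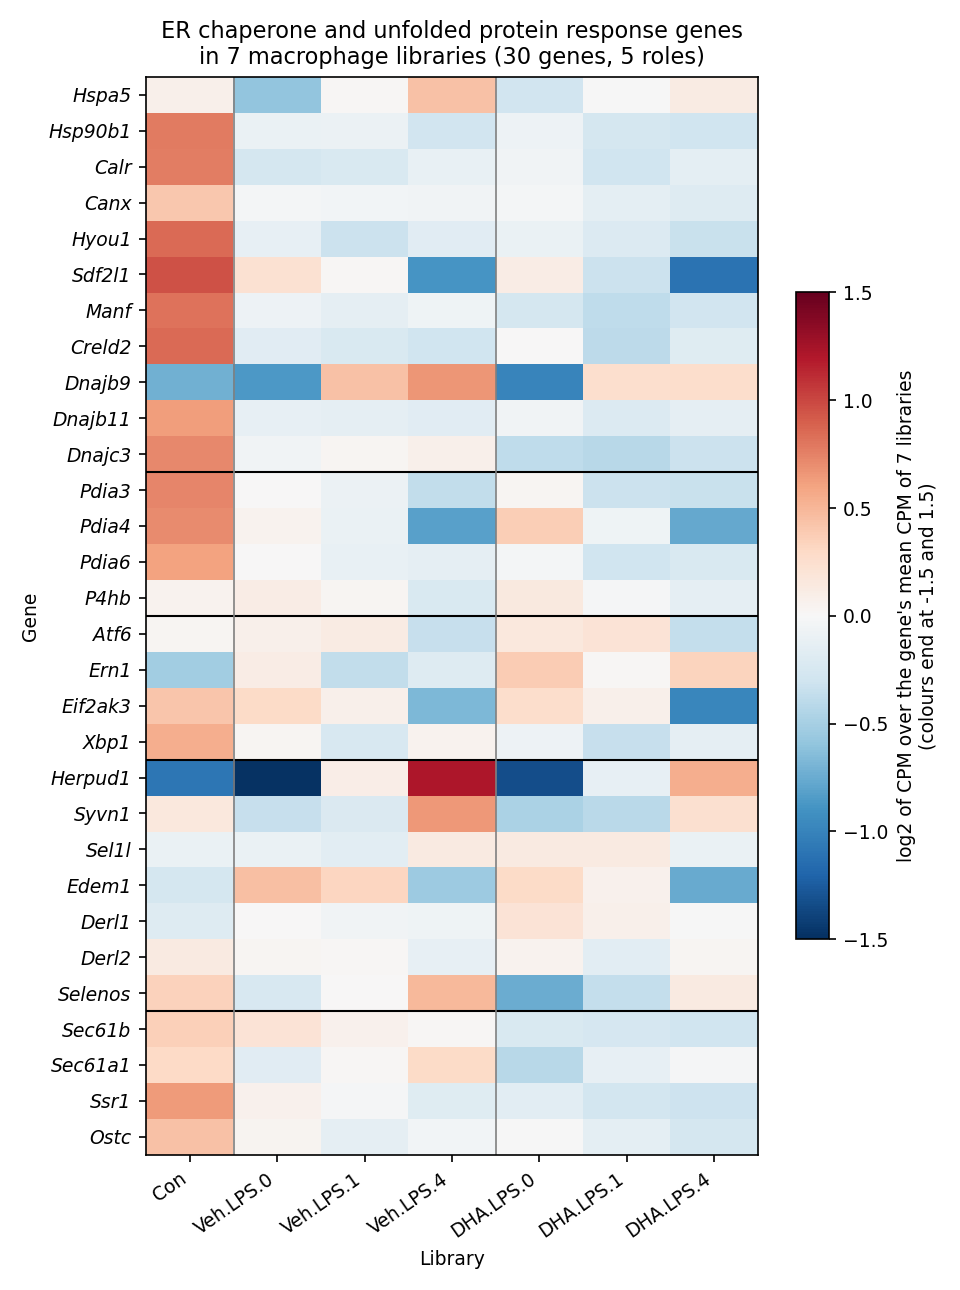
Level of each of the 30 ER genes (rows, grouped by role from chaperones at the top to translocon genes at the bottom) in the 7 libraries (columns), as log2 of CPM over the gene's own mean CPM of the 7 libraries. Most chaperones and isomerases were at their highest in Con, and Herpud1, Dnajb9, Hspa5, Syvn1 and Selenos were higher at 4 h of LPS than at 0 h, in vehicle as in DHA.

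The first comparison asks how these genes differed between FLMs in growth medium and FLMs after a day in low serum with vehicle. The chaperone group was lower in Veh.LPS.0 as a body. Of the 28 genes above 10 CPM, 13 were over 1.5-fold lower and 1, Edem1, was over 1.5-fold higher, where 7.7% of all genes were lower and 9.3% higher. The median log2 ratio of the 28 was -0.54, against -0.075 over all genes. Summed over the 30 genes, their level was 10352 CPM in Con and 6700 CPM after the day with vehicle.

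All 11 chaperones and cofactors had a lower level in Veh.LPS.0 than in Con, 9 of them by over 1.5-fold. Calr encodes calreticulin, the soluble lectin chaperone of new glycoproteins (chromosome 8, 84842088 to 84846931). Its level was 1439 CPM in Con, 701, 717 and 778 CPM with vehicle at 0, 1 and 4 h of LPS, and 814, 687 and 762 CPM with DHA at the same hours. Con stood alone, and the 6 treated libraries lay between 687 and 814 CPM. Its log2 ratio of Veh.LPS.0 over Con was -1.04 (-1.05 to -1.02). Hsp90b1, which encodes the ER member of the HSP90 family, had 1602 CPM in Con, 867, 876 and 765 CPM with vehicle at 0, 1 and 4 h of LPS, and 882, 775 and 755 CPM with DHA at the same hours. Its log2 ratio was -0.89 (-0.90 to -0.87), and here too Con was apart from all the others.

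Hyou1, an ER member of the large HSP70-like proteins that acts with BiP, went from 147 CPM in growth medium to 74.9 CPM in Veh.LPS.0. Its log2 ratio was -0.98 (-1.01 to -0.94). Creld2 and Manf, small ER proteins that are induced by ER stress, gave -1.02 (-1.07 to -0.98) and -0.90 (-0.92 to -0.88). Manf had 681 CPM in Con, 365, 351 and 369 CPM with vehicle at 0, 1 and 4 h of LPS, and 322, 297 and 317 CPM with DHA at the same hours. No treated library came near its level in Con. Dnajc3 and Dnajb11, J-domain partners of BiP, gave -0.78 (-0.81 to -0.74) and -0.75 (-0.78 to -0.72). Sdf2l1, a partner of the ER J-proteins, gave -0.73 (-0.75 to -0.70).

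The 2 chaperones that did not pass the limit were Canx, the membrane-bound lectin partner of calreticulin, at -0.43, and Dnajb9, an inducible J-domain cochaperone of BiP, at -0.14. Canx ranged from 312 CPM in DHA.LPS.4 to 473 CPM in Con.

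Hspa5 encodes BiP, the HSP70 of the ER (chromosome 2, 34772090 to 34776529). Its level was 1732 CPM in Con, 1089, 1665 and 2223 CPM with vehicle at 0, 1 and 4 h of LPS, and 1344, 1631 and 1790.1 CPM with DHA at the same hours. Of the 11 chaperones 9 were at their highest in Con, while Hspa5 and Dnajb9 were at their highest in Veh.LPS.4. The log2 ratio of Veh.LPS.0 over Con was -0.67 (-0.68 to -0.66). That ratio was -0.58 over all barcodes, just inside the limit, and -0.036 over the cells without a UMI of Mki67 or Top2a, of which Con held only 54.

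The disulfide isomerases, which form and rearrange disulfide bonds, were lower in 3 of 4 cases. Pdia3 (ERp57), the partner of calreticulin and calnexin, gave -0.72 (-0.74 to -0.70), Pdia4 (ERp72) gave -0.66 (-0.69 to -0.63) and Pdia6 (P5) gave -0.59 (-0.61 to -0.57). P4hb, the classical protein disulfide isomerase and a subunit of prolyl 4-hydroxylase, had 286 CPM in growth medium and 296 CPM in Veh.LPS.0. The isomerases thus did not share one direction.

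The genes of the sensors and of XBP1 stayed within the limit or below the level at which genes were counted. Atf6 had 77.8 and 80.5 CPM in Con and Veh.LPS.0, with a log2 ratio of 0.048 (0.0055 to 0.091). Eif2ak3 had 7.64 and 6.98 CPM. Ern1 had 4.82 and 7.45 CPM with a log2 ratio of 0.63 (0.47 to 0.79). Xbp1, whose mRNA is spliced by IRE1, had 126 and 88.1 CPM with a log2 ratio of -0.51 (-0.55 to -0.48). Ern1 and Atf6 thus had the higher level in Veh.LPS.0, and Eif2ak3 and Xbp1 in Con. Counts at the 3′ end do not read the splicing of Xbp1.

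The degradation genes were mixed. Edem1, which takes mannose-trimmed glycoproteins out of the folding cycle (chromosome 6, 108824045 to 108859356), had 102 CPM in Con, 169, 154 and 84.6 CPM with vehicle at 0, 1 and 4 h of LPS, and 151, 129 and 73.2 CPM with DHA at the same hours. It was higher in Veh.LPS.0 than in Con, with a log2 ratio of 0.72 (0.69 to 0.76), the reverse of the chaperones. Selenos, a selenoprotein of the retrotranslocation complex, gave -0.59 (-0.62 to -0.55). The other 5, Herpud1, Syvn1, Sel1l, Derl1 and Derl2, lay between -0.50 and 0.20, within the limit. The translocon and glycosylation genes were all lower, each by less than 1.5-fold: Ssr1, a subunit of the translocon-associated complex, gave -0.57, Sec61a1, the channel itself, -0.47, Ostc, an oligosaccharyltransferase subunit, -0.40, and Sec61b, the small channel subunit, -0.16.

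The next comparisons ask how the genes differed after LPS in vehicle-treated FLMs. At 1 h, 3 of the 28 genes were over 1.5-fold higher (Herpud1, Dnajb9 and Hspa5) and 0 were lower, where 4.6% of all genes were higher and 2.75% lower. At 4 h, 5 were higher (the same 3 with Syvn1 and Selenos) and 3 were lower (Sdf2l1, Edem1 and Pdia4), where 10.1% of all genes were higher and 36.1% lower. The median gene had a log2 ratio of -0.34 at 4 h by CPM and of 0.095 after TMM scaling, a shift of the whole scale, and the median of the 28 was -0.063 and 0.37. Above the median gene lay 23 of the 28. With TMM scaling 7 were over 1.5-fold higher and 1 lower, where 21.7% of all genes were higher and 18.7% lower. The 7 were the 5 named above with Sel1l and Sec61a1. The sign of small ratios thus depended on the scale: 11 of the 28 lay above 0 by CPM and 25 after TMM scaling. At 1 h the other 25 lay between -0.27 (Xbp1) and 0.25 (Selenos).

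Herpud1, which encodes a membrane protein of the HRD1 complex (chromosome 8, 94386429 to 94395371), had 65.8 CPM in Con, 49.998, 149.9 and 325 CPM with vehicle at 0, 1 and 4 h of LPS, and 55.8, 128 and 204 CPM with DHA at the same hours. In both arms the level was higher at 1 h than at 0 h and higher again at 4 h. The log2 ratio over Veh.LPS.0 was 1.58 (1.54 to 1.63) at 1 h and 2.70 (2.66 to 2.75) at 4 h. Expressed as a fold, Veh.LPS.4 had 6.51 (6.31 to 6.71) times the level of Veh.LPS.0. The log2 ratio of Herpud1, though not its level, was the highest of the 30 genes at both times.

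Dnajb9 (chromosome 12, 44205897 to 44210068) had 10.7 CPM in Con, 9.68, 24.0 and 28.0 CPM with vehicle at 0, 1 and 4 h of LPS, and 8.85, 21.1 and 21.2 CPM with DHA at the same hours. The 4 libraries with LPS lay between 21.1 and 28.0 CPM, and the 3 without it between 8.85 and 10.7 CPM. Its log2 ratio was 1.31 (1.200 to 1.42) at 1 h and 1.53 (1.42 to 1.65) at 4 h in vehicle. Most of the difference was present at 1 h.

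For Hspa5 the log2 ratio over Veh.LPS.0 was 0.61 (0.60 to 0.62) at 1 h and 1.03 (1.02 to 1.04) at 4 h. It differed from Herpud1 in that its level after LPS was close to or above that in growth medium rather than several times higher, from 1732 CPM in growth medium to 2223 CPM after 4 h. Over all barcodes the ratio at 1 h was 0.57, and at 4 h in cells without a UMI of Mki67 or Top2a it was 0.58, both just inside the limit. The share of such cells was 7.70% in Veh.LPS.0 and 35.2% in Veh.LPS.4.

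Syvn1, the HRD1 ubiquitin ligase (chromosome 19, 6046576 to 6053718), had 11.96 CPM in Con, 8.47, 9.29 and 16.9 CPM with vehicle at 0, 1 and 4 h of LPS, and 7.74, 8.14 and 12.7 CPM with DHA at the same hours. Only the 4 h libraries and Con were above 10 CPM. Its log2 ratio at 4 h in vehicle was 1.00 (0.87 to 1.13). Selenos (chromosome 7, 66079649 to 66089405) had 165 CPM in Con, 109.8, 130.5 and 182 CPM with vehicle at 0, 1 and 4 h of LPS, and 77.3, 101 and 142 CPM with DHA at the same hours, and its ratio at 4 h was 0.73 (0.69 to 0.77). Both were within the limit at 1 h, at 0.13 and 0.25. Sel1l, the HRD1 adaptor that belongs to the same complex, gave 0.23 at 4 h, and the derlins Derl1 and Derl2, which are rhomboid-like membrane proteins of the complex, gave -0.076 and -0.15. After TMM scaling Sel1l gave 0.67, past the limit, and Derl1 and Derl2 gave 0.35 and 0.28.

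**Figure D2:**
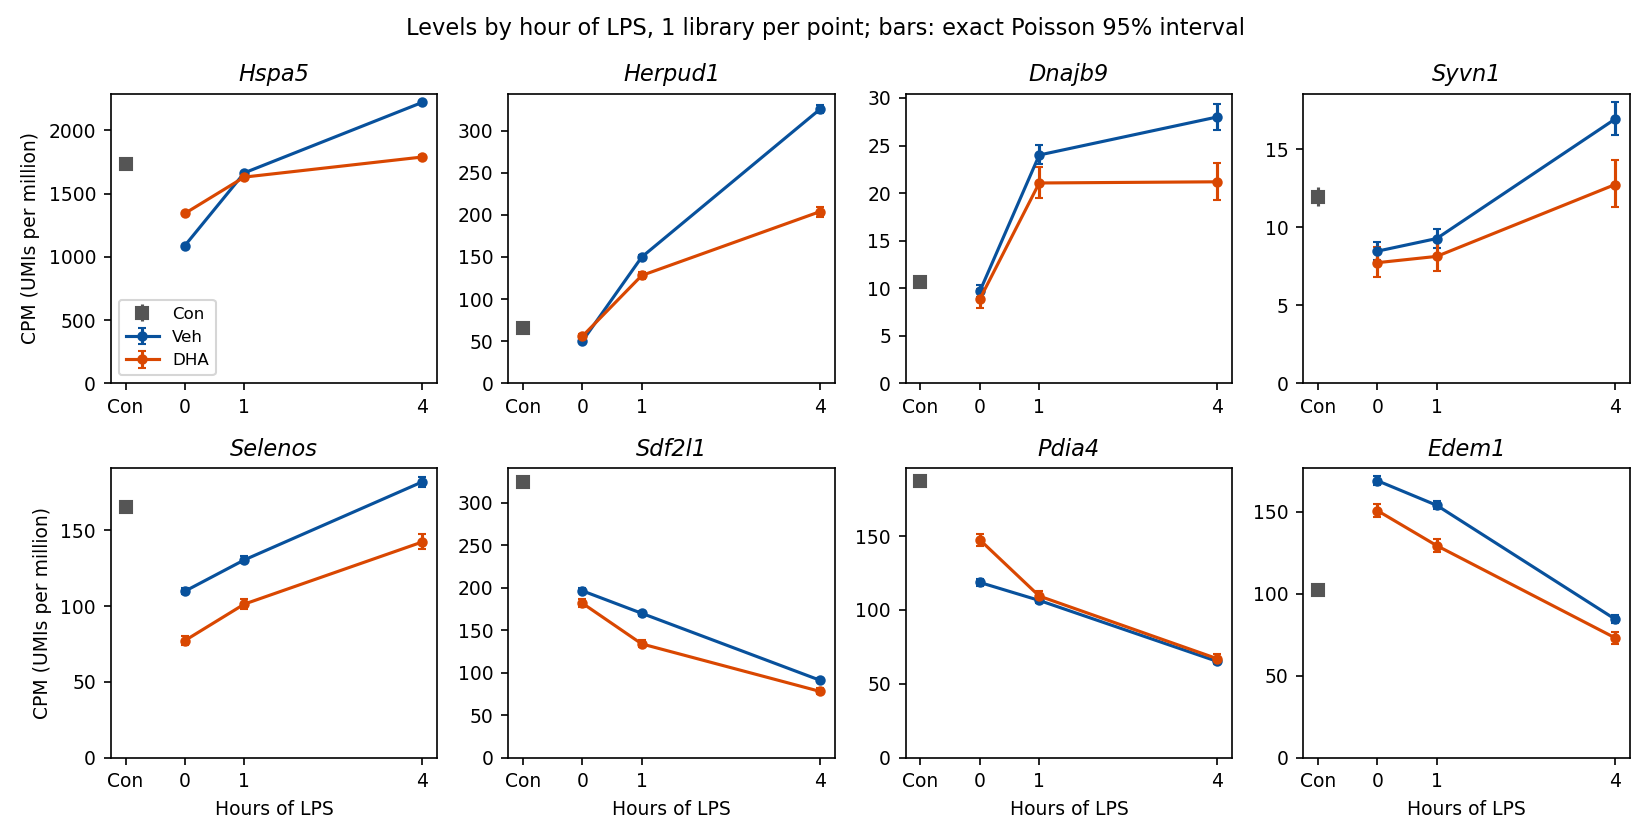
Levels in CPM (vertical axes, from 0) of 8 ER genes against hours of LPS in vehicle (blue) and DHA (orange), with Con as a grey square; 1 library per point, bars are exact Poisson 95% intervals of the count. Hspa5, Herpud1, Dnajb9, Syvn1 and Selenos were higher and Sdf2l1, Pdia4 and Edem1 lower at 4 h than at 0 h in both arms, by CPM and after TMM scaling.

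The genes that went the other way were Sdf2l1, Pdia4 and Edem1. Sdf2l1 (chromosome 16, 17130138 to 17132383) had 325 CPM in Con, 197, 170.1 and 91.3 CPM with vehicle at 0, 1 and 4 h of LPS, and 182, 134 and 78.2 CPM with DHA at the same hours. Its order from Con through the hours of LPS ran downward in both arms, and its log2 ratio at 4 h in vehicle was -1.11 (-1.15 to -1.06). Pdia4 (chromosome 6, 47796141 to 47813512) had 187 CPM in Con, 119, 106 and 65.2 CPM with vehicle at 0, 1 and 4 h of LPS, and 147, 109 and 67.0 CPM with DHA at the same hours, with a ratio at 4 h of -0.86 (-0.92 to -0.81). Edem1 gave -0.998 (-1.04 to -0.95) at 4 h and -0.13 at 1 h. After TMM scaling the 3 ratios at 4 h were -0.67, -0.43 and -0.57, so only Sdf2l1 stayed past the limit.

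The remaining chaperones did not share the pattern of Hspa5. At 4 h Calr gave 0.15, Hsp90b1 -0.18, Canx -0.033, Hyou1 -0.050, Manf 0.018, Creld2 -0.13, Dnajb11 -0.040 and Dnajc3 0.13, all within the limit and all above the median gene at -0.34. After TMM scaling they lay between 0.25 (Hsp90b1) and 0.581 (Calr), again within the limit. The isomerases Pdia3, Pdia6 and P4hb gave -0.37, -0.14 and -0.33, and 0.056, 0.29 and 0.099 after TMM scaling. Among the translocon genes Sec61a1 had the highest ratio, 0.46, with Sec61b, Ssr1 and Ostc between -0.25 and -0.078. After TMM scaling Sec61a1 gave 0.89, past the limit, and the others lay between 0.18 and 0.35. Xbp1 gave 0.032 and Atf6 -0.43 by CPM, and 0.46 and 0.0047 after TMM scaling. The 2 low sensor genes had 6.06 CPM (Ern1) and 3.58 CPM (Eif2ak3) in Veh.LPS.4, against 7.45 and 6.98 CPM in Veh.LPS.0.

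In the DHA arm, LPS for 4 h left 4 of the 28 genes higher than in DHA.LPS.0 (Herpud1, Dnajb9, Selenos and Syvn1) and 3 lower (Sdf2l1, Pdia4 and Edem1), where 10.5% of all genes were higher and 29.2% lower. These are libraries apart from those of the vehicle arm. Herpud1 gave 1.87 (1.79 to 1.95), Dnajb9 1.26 (1.049 to 1.47), Selenos 0.88 (0.81 to 0.96) and Syvn1 0.72 (0.47 to 0.97). Hspa5 gave 0.41 (0.39 to 0.43) by CPM in the kept cells, within the limit. After TMM scaling it was at 0.71, past the limit, where the median gene moved from -0.23 to 0.067. By CPM it was also past the limit over all barcodes (0.73) and in cells without a UMI of Mki67 or Top2a (0.71). Without the 5% of cells highest for Hspa5 it was at 0.96. Sdf2l1, Pdia4 and Edem1 gave -1.22, -1.14 and -1.04.

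The last comparisons ask how the genes differed between DHA and vehicle at the same hour. Without LPS, 0 of the 28 genes were over 1.5-fold higher and 0 lower, where 1.12% and 1.04% of all genes were. At 1 h of LPS the counts were again 0 and 0, where 1.33% of all genes were higher and 1.86% lower. At 4 h, 0 were higher and 1, Herpud1, was lower, where 3.34% were higher and 2.04% lower. The differences were thus small, and the median of the 28 log2 ratios was 0.0075, -0.17 and -0.18 at 0, 1 and 4 h, against -0.050, -0.055 and 0.087 over all genes. After TMM scaling the members' median at 4 h was -0.30 and that of all genes -0.036. In the kept cells 20 of the 28 lay below the median gene at 1 h and 25 at 4 h, counts that a change of scale cannot alter. This changed with the cells counted. Over all barcodes, most of which in the DHA libraries were set aside for their mitochondrial UMIs, only 1 and 7 lay below the median gene, 20 and 16 were above vehicle, and the median of the 28 was 0.20 at 1 h and 0.049 at 4 h against -0.30 and -0.16 over all genes. In cells without a UMI of Mki67 or Top2a 24 and 15 lay below the median gene, and 15 were above vehicle at 4 h. That set was picked at full depth, which differed between the vehicle and DHA libraries at 4 h.

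Herpud1 at 4 h had 325 CPM with vehicle and 204 CPM with DHA, a log2 ratio of -0.67 (-0.72 to -0.63). At 1 h the ratio was -0.23 (-0.28 to -0.18), and 0.21 over all barcodes. In cells without a UMI of Mki67 or Top2a it was -0.75 at 1 h, past the limit. Without LPS it was 0.16 (0.082 to 0.23), and -0.043 in cells without a UMI of Mki67 or Top2a. At 4 h the ratio was -0.39 over all barcodes and -0.50 in the cells without those UMIs, both within the limit. The DHA libraries kept 12.1 to 18.5% of their barcodes and the others 40.6 to 62.5%.

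The log2 ratio of Hspa5 was 0.30 (0.29 to 0.32) without LPS, -0.029 (-0.044 to -0.015) at 1 h and -0.31 (-0.33 to -0.30) at 4 h. Its direction depended on the cells counted: without a UMI of Mki67 or Top2a the 3 ratios were -0.10, -0.33 and 0.028, and over all barcodes 0.33, 0.18 and -0.0050. Dnajb9 was below vehicle at all 3 hours, at -0.13, -0.19 and -0.40 (-0.55 to -0.25), with an interval that took in 0 at 0 h, where cells without a UMI of Mki67 or Top2a gave 0.046. Syvn1 gave -0.41 (-0.61 to -0.22) at 4 h, and 0.0093 over all barcodes.

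Some genes lay on the same side of vehicle at every hour. Sec61b (chromosome 4, 47474661 to 47483233) had 600.3 CPM in Con, 539, 491 and 476 CPM with vehicle at 0, 1 and 4 h of LPS, and 399, 395 and 382 CPM with DHA at the same hours. At each hour the DHA library lay below its vehicle library, with log2 ratios of -0.43, -0.31 and -0.32, and over all barcodes of -0.81, -0.70 and -0.73. Selenos gave -0.51, -0.36 and -0.35, and over all barcodes -0.40, -0.033 and -0.19. Dnajc3 gave -0.32, -0.45 and -0.39, and over all barcodes -0.14, -0.18 and -0.13. Edem1 gave -0.16, -0.25 and -0.21, and over all barcodes -0.26, -0.29 and -0.23. Derl1 lay above vehicle, at 0.19, 0.14 and 0.066, and over all barcodes at 0.27, 0.40 and 0.12. After TMM scaling Derl1 was at -0.056 at 4 h. Sec61a1, at -0.25, -0.14 and -0.31, was below vehicle over all barcodes too. In cells without a UMI of Mki67 or Top2a it was at 0.068 at 1 h. Over all barcodes the median gene was itself below vehicle, at -0.25, -0.30 and -0.16. Against that median Sec61b was lower at each hour, while Dnajc3 and Sec61a1 were higher at each hour. Selenos and Edem1 were higher than it at 1 h only. Ssr1 and Manf gave -0.13 and -0.22 at 4 h in the kept cells and 0.20 and 0.037 over all barcodes, in the other direction.

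Pdia4 was the highest of the 28 without LPS, at 0.31 (0.27 to 0.36), and had 0.039 and 0.039 at 1 and 4 h. Without the 5% of cells that held most of it, its ratio without LPS was 0.096. Sel1l gave 0.22 without LPS, 0.29 at 1 h and -0.24 at 4 h. Its sign turned at 0 h in cells without a UMI of Mki67 or Top2a (-0.034) and at 4 h over all barcodes (0.060). Calr gave 0.21 without LPS, and 0.052 without the 5% of cells that held most of it. Creld2 gave 0.18, but -0.13 without its highest cells, -0.063 over all barcodes and -0.25 in cells without a UMI of Mki67 or Top2a. The isomerases Pdia3, Pdia6 and P4hb lay between -0.034 and 0.041 without LPS and between -0.10 and 0.091 at 4 h. At 1 h they gave -0.24, -0.19 and -0.039, and over all barcodes 0.28, 0.28 and 0.20. Hsp90b1, Canx, Hyou1, Sdf2l1, Dnajb11, Xbp1, Atf6, Edem1, Derl1, Derl2 and Ostc lay between -0.16 and 0.19 without LPS, -0.34 and 0.14 at 1 h, and -0.23 and 0.15 at 4 h. Of the low sensor genes, Ern1 had 6.06 CPM with vehicle and 8.71 CPM with DHA at 4 h, a ratio of 0.52 (0.26 to 0.78), after 0.28 and 0.39 at 0 and 1 h. The ratio of Eif2ak3 at 4 h was -0.30 (-0.73 to 0.11), an interval that took in 0.

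**Figure D3:**
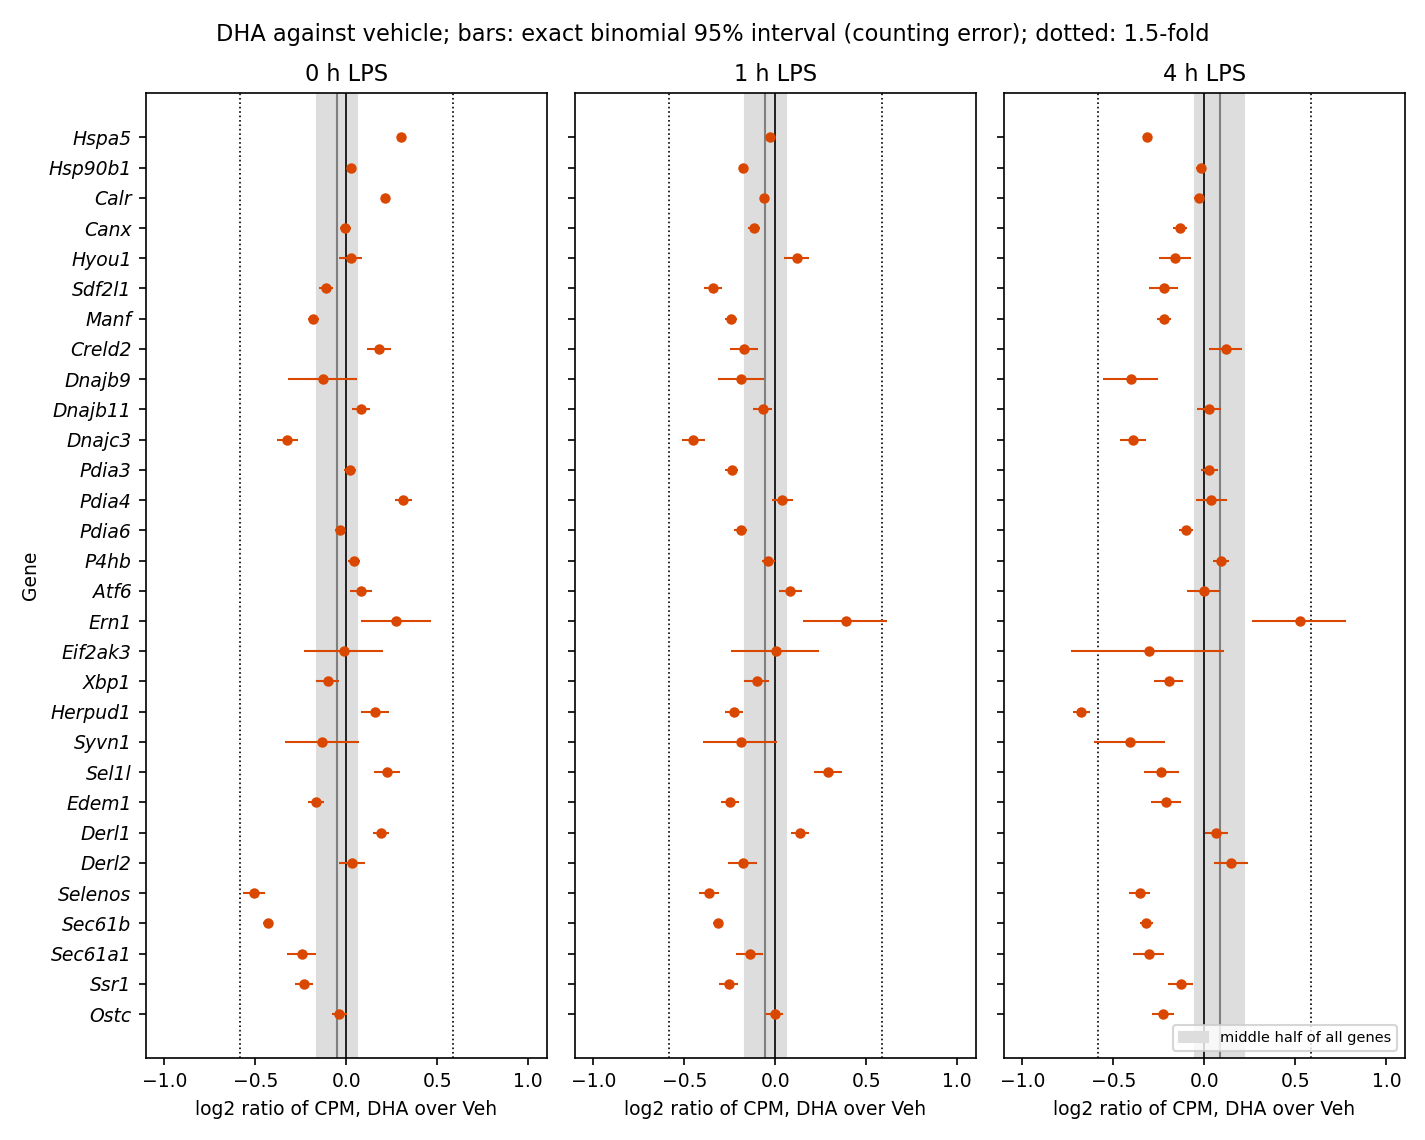
Log2 ratio of CPM in DHA over vehicle (horizontal axes) of the 30 ER genes without LPS, at 1 h and at 4 h; points are 1 library over 1 library, bars are exact binomial 95% intervals of the counts, the grey band runs from the lower to the upper quartile of all genes and dotted lines mark 1.5-fold. Herpud1 at 4 h was the only gene of the 28 past the limit, at -0.67.

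The ratio at 4 h rests on other libraries than the ratio at 0 h, so their difference can be read with its counting error. For Herpud1 the log2 ratio of DHA over vehicle at 4 h minus that at 0 h was -0.83 (-0.92 to -0.74), for Hspa5 -0.62 (-0.64 to -0.59) and for Sel1l -0.46 (-0.58 to -0.34). Over all genes the median of this difference was 0.12, with quartiles of -0.029 and 0.28. Of the 30 genes, here with Ern1 and Eif2ak3 included, 23 had a difference below 0. The interval lay wholly below 0 in 14 and wholly above it in 3 (Selenos, Sec61b and Ssr1). The share of all genes with such differences or intervals was not counted, so these counts do not set the members apart from other genes. The intervals also leave out the spread between cells. At 1 h against 0 h the most negative were Herpud1 at -0.39 (-0.48 to -0.30) and Creld2 at -0.35 (-0.45 to -0.25). Hspa5 followed at -0.33 (-0.35 to -0.31), where the median over all genes was -0.012. Over all barcodes the difference at 1 h was only -0.039 for Herpud1 and -0.14 for Hspa5. In that set 12 of the 30 were below 0, against 21 in the kept cells. In cells without a UMI of Mki67 or Top2a it was -0.71 for Herpud1 and -0.22 for Hspa5, with 22 below 0. Over all barcodes the difference at 4 h was -0.64 for Herpud1 and -0.33 for Hspa5, and 17 of the 30 were below 0. In cells without a UMI of Mki67 or Top2a it was -0.45 for Herpud1 but 0.13 for Hspa5, and 9 of the 30 were below 0. For these sets too the share of all genes below 0 was not counted. Herpud1 was thus lower relative to vehicle at 4 h than at 0 h in each of these 3 sets of cells, and Hspa5 in 2 of them. Much of the difference for Hspa5 rested on few cells. Without the 5% of cells highest for Hspa5 its ratios were -0.028 at 0 h and -0.22 at 4 h, from 0.30 and -0.31. Those of Herpud1 without its highest cells were 0.15 and -0.63.

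A level summed over cells can come from all cells or from a few, so each kept cell was thinned to 20000 UMIs. The median cell held 32 Hspa5 UMIs in Con, 15, 26 and 31 with vehicle at 0, 1 and 4 h of LPS, and 13, 23 and 28 with DHA. In medians as in sums, LPS libraries were above those without LPS in each arm. The DHA median was below the vehicle median at every hour, including 0 h, where the summed level was higher with DHA.

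The higher summed level with DHA at 0 h rested on an upper tail of cells. The 5% of cells with the most Hspa5 held 11.5% of its UMIs in Con, 29.0% in Veh.LPS.0 and 43.2% in DHA.LPS.0. With LPS that share was 22.6% in Veh.LPS.1, 29.4% in DHA.LPS.1, 27.5% in Veh.LPS.4 and 21.8% in DHA.LPS.4. Cells with over 100 Hspa5 UMIs of 20000 made up 0.481% (0.263 to 0.806) of Con and 2.42% (1.85 to 3.102) of Veh.LPS.0. In DHA.LPS.0 the share was 5.01% (3.52 to 6.91). The exact binomial 95% intervals of these shares are over cells, which are not replicates, and leave out the spread between cultures. Without the 5% of cells highest for the gene in each library, the log2 ratio of DHA over vehicle without LPS was -0.028, from 0.30 with them. At 4 h the share over 100 UMIs was 7.25% (5.72 to 9.04) in Veh.LPS.4 and 5.35% (3.79 to 7.29) in DHA.LPS.4, and the ratio was -0.22 without the highest cells.

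With LPS, Herpud1 differed in the typical cell, as Hspa5 did by the medians above. The median cell held 1 Herpud1 UMI of 20000 in Con, Veh.LPS.0 and DHA.LPS.0, and 2 in both 1 h libraries. At 4 h it held 5 in Veh.LPS.4 and 3 in DHA.LPS.4. Cells with over 3 UMIs, the 95th percentile of Veh.LPS.0, made up 4.72% of Veh.LPS.0, 30.9% of Veh.LPS.1 and 63.1% (60.1 to 66.2) of Veh.LPS.4. In the DHA arm the shares were 5.16%, 27.7% and 49.0% (45.2 to 52.8). These intervals too leave out the spread between cultures. For Calr the median cell held 28 UMIs in Con and 12 or 13 in the 6 treated libraries, and 47.7% of Con cells lay above the 95th percentile of Veh.LPS.0. The lower Calr level after a day in low serum was thus present in the typical cell.

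**Figure D4:**
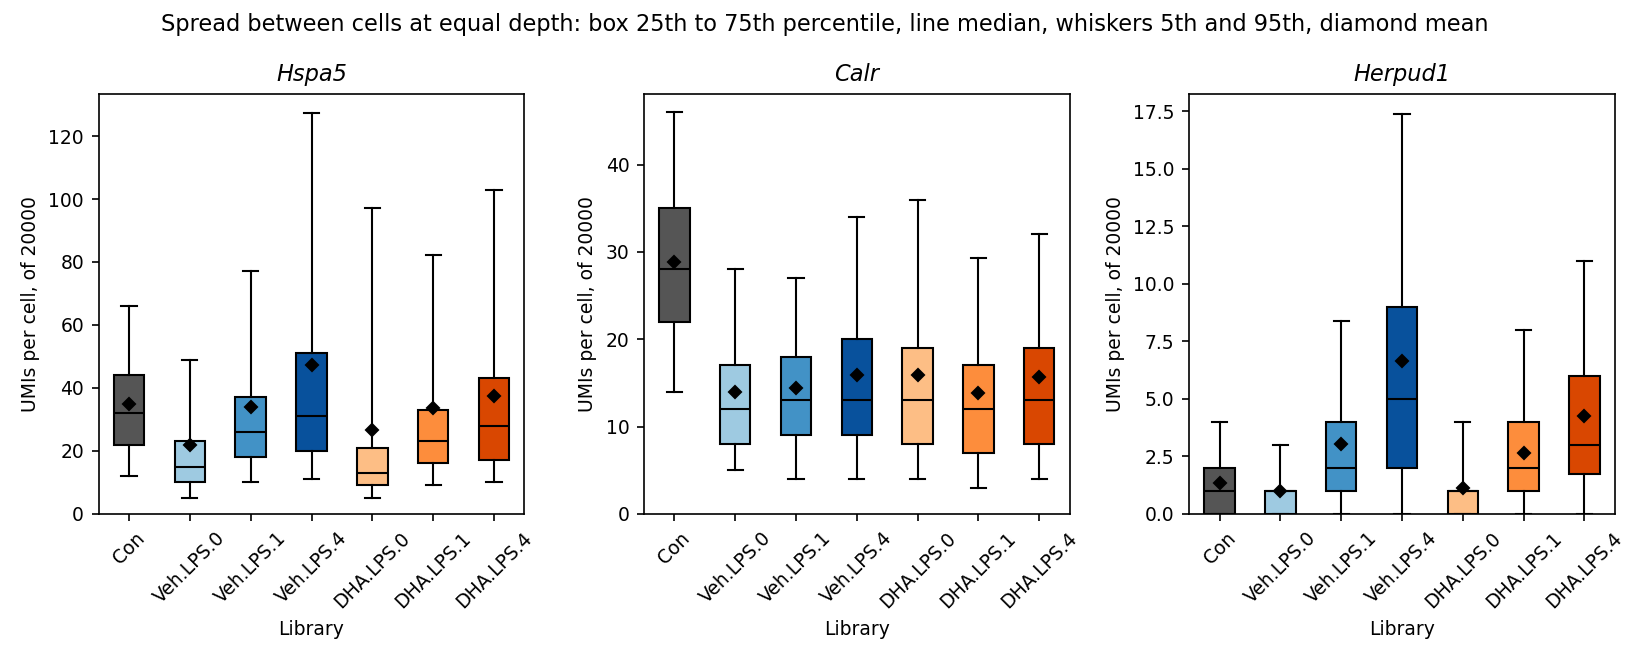
UMIs per cell of Hspa5, Calr and Herpud1 in the 7 libraries, each cell thinned to 20000 UMIs; boxes run from the 25th to the 75th percentile, whiskers from the 5th to the 95th, lines are medians and diamonds means. For Hspa5 in DHA.LPS.0 the mean (26.6) was 2.05 times the median (13), while for Calr in Con the mean (28.8) and the median (28) were close.

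Cells of 1 library that held much Hspa5 also held more of most other chaperones. Pearson's r with Hspa5 between cells, on log2 of 1 plus UMIs at equal depth, was averaged over the 7 libraries for 7299 genes. The 10 genes with the highest mean r were all among the 30: Manf (0.587), Hsp90b1 (0.556), Calr (0.524), Pdia6 (0.473), Sdf2l1 (0.426), Pdia3 (0.419), Pdia4 (0.410), Dnajc3 (0.402), Hyou1 (0.395) and Creld2 (0.389). The median gene had -0.012 and the 95th percentile of genes was 0.0839. Among the 27 other members above 10 CPM, 20 ranked in the top 50 and 24 in the top 100. For Manf the lowest of the 7 libraries was 0.530 and the highest 0.677. The cells of a library share its preparation, and the 692 to 3073 cells are not replicates of a condition.

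Some roles ranked lower than the leading chaperones. The genes that ranked after the top 100 were Derl2 (0.135), Atf6 (0.0903) and Edem1 (0.0288, rank 1209). Herpud1 (0.335) ranked 13 and Dnajb9 (0.284) ranked 18, and for both the highest r was in Veh.LPS.4, at 0.497 and 0.443. This was not particular to them. The highest r was in Veh.LPS.4 for Manf, Hsp90b1, Pdia6, Dnajc3 and Hyou1 too, though not for Calr, Sdf2l1, Pdia3, Pdia4 or Creld2. Dnajb9 had a mean of only 0.14 to 0.59 UMIs per thinned cell, with the most in Veh.LPS.4. The translocon genes lay between 0.187 (Ssr1) and 0.276 (Ostc), and the transcription factor gene Xbp1 at 0.175. Edem1, at the end of this order, also had the highest ratio of Veh.LPS.0 over Con among the 28, of which 5 were above Con.

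**Figure D5:**
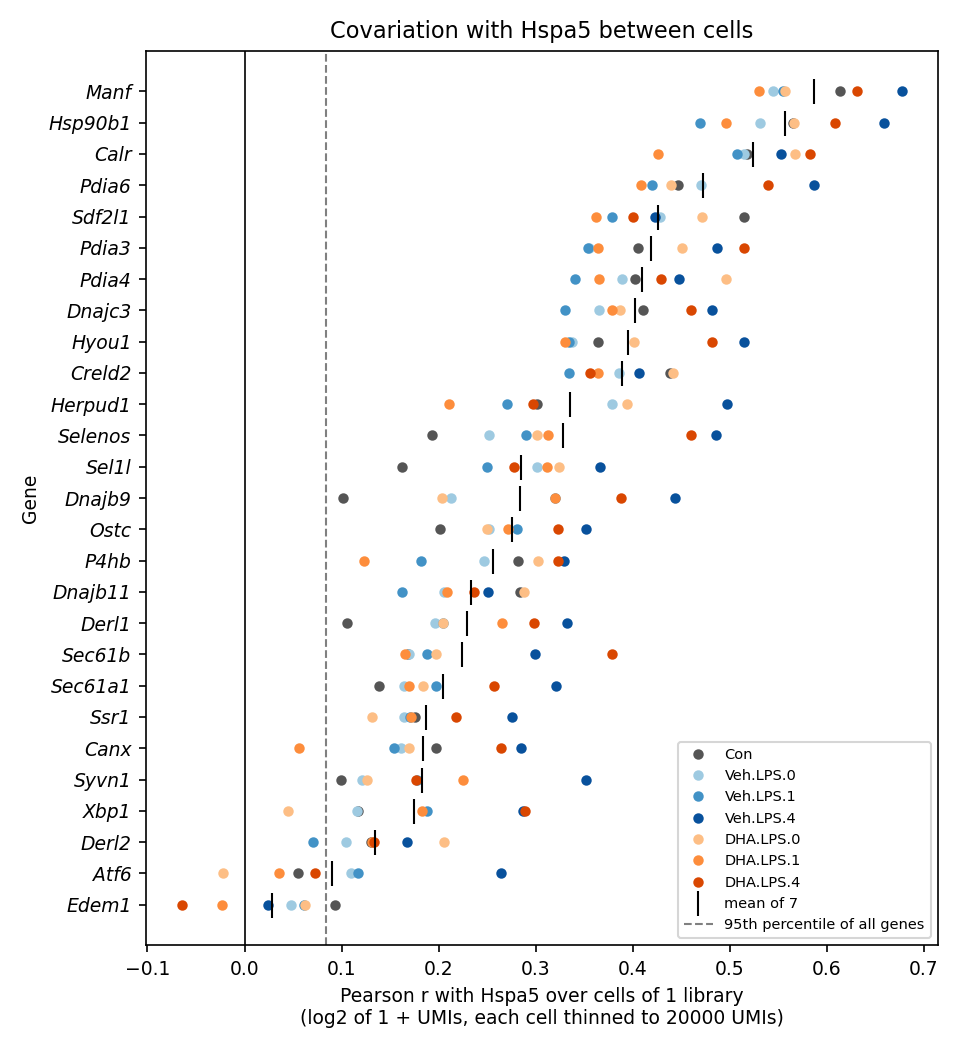
Pearson's r with Hspa5 between the cells of each library (points, coloured by library) for 27 ER genes, ordered by the mean of the 7 libraries (bars), with the 95th percentile of all genes dashed. Manf, Hsp90b1 and Calr were above 0.4 in all 7 libraries, and Edem1 lay near 0.

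A list of 59 further ER genes, 51 of them above 10 CPM, was counted in the same way. In Veh.LPS.0 against Con 4 were higher (7.84%) and 5 lower (9.80%), close to the 9.3% and 7.7% of all genes, led by Trib3 (1.54) and Ddit3 (1.53), both known targets of the PERK branch, and at the other end by Mlec (-0.999), an ER lectin, and Vcp (-0.78), the ATPase that pulls proteins out of the ER. At 1 h of LPS in vehicle 2 were higher (3.92%) and 0 lower, where 4.6% and 2.75% of all genes were: Ppp1r15a, whose product reverses the block of translation by PERK, had 27.6 and 287 CPM in Veh.LPS.0 and Veh.LPS.1, and Atf4, the transcription factor of that branch, had a log2 ratio of 0.78. At 4 h 4 were higher (7.84%) and 6 lower (11.8%) by CPM, against 10.1% and 36.1% of all genes. After TMM scaling 14 of the 51 were higher and 0 lower, against 21.7% and 18.7% of all genes. By CPM Ppp1r15a was at 1.70 and Atf4 at 1.44.

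With DHA and no LPS 3 of the 51 were higher (5.88%) and 0 lower, where 1.12% and 1.04% of all genes were. Ddit3, which encodes the stress factor CHOP, had 44.1 and 101 CPM in Veh.LPS.0 and DHA.LPS.0, and Trib3 had 18.0 and 33.1 CPM. The study had already reported Ddit3 as increased by DHA without LPS. The list was chosen with earlier results of these data known, so its share past the limit is a description and no test. At 1 h 2 were higher, Trib3 at 0.92 and Ero1l, the oxidase of the isomerases, at 0.69, and 0 were lower, where 1.33% and 1.86% of all genes were. At 4 h 0 were higher and 0 lower, where 3.34% and 2.04% of all genes were. In these DHA comparisons without LPS and at 1 h none of the 28 chaperone and response genes had passed the limit.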

How the data were processed

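The authors deposited, for each of 7 libraries made with the 10x Chromium 3′ kit (v3 chemistry), a sparse matrix of raw UMI counts per gene and cell barcode, with no normalization. Per the labels the reads were counted with Cell Ranger 3.1.0 on the mouse build mm10; the study's methods name another version of the program. All 7 libraries were used, and no column was left out for want of a sample.

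Barcodes with over 20000 UMIs, at least 2000 genes and under 20% mitochondrial UMIs were kept, as in the study. No doublet caller was run. Counts were summed per gene and library and divided by the library's total to give CPM. Because each condition is 1 library, ratios carry an exact binomial interval (95%, scipy 1.17.1) for counting error only and no p-value, and a gene counted as higher or lower where the ratio was past 1.5-fold, the limit that the study took for DHA and used here for every comparison. The background is the genes with a mean over the 7 libraries of at least 10 CPM. For values per cell each kept cell was thinned to 20000 UMIs without replacement with a fixed seed, and r with Hspa5 was computed within each library. TMM factors came from edgeR 4.0.16 in R 4.3.3 and served only as another scaling. Other computations used Python 3.11.15, numpy 2.4.6 and pandas 2.3.3. The interval and counting steps were tested on simulated counts with known fold changes.

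All 30 members are named, by role, and the further ER list is named by its 2 highest and 2 lowest ratios or by counts. The members and lists were chosen with earlier results of these data known. The alternatives were another scaling, a lower limit on UMIs, a stricter limit on mitochondrial UMIs, all barcodes and no 5% deepest cells. Further ones were thinned cells, other gene filters and a lower limit on the fold (0.32 on the log2 scale). Another kept only cells without a UMI of Mki67 or Top2a at full depth, which depends on depth and is not a call of cell cycle phase. Centring on the median gene and leaving out the 5% of cells highest for a gene were added after the data had been seen. Sequences of the genes are not used here.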

Additional observations from a re-analysis of the deposited data

How the results depend on the processing

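With 1 library per condition no replicate could be left out, and no paired analysis was possible because no condition has more than 1 library. No ratio past the 1.5-fold limit changed sign under any alternative tried. Counts of members moved as follows. With a lower limit of 0.32 on the log2 scale the members lower were 20 for Veh.LPS.0 against Con, 6 and 5 for 4 h of LPS in vehicle and in DHA, and 3, 3 and 5 for DHA against vehicle at 0, 1 and 4 h. The share of all genes past that lower limit was not counted. With TMM scaling 1 member was lower at 4 h of LPS in vehicle, where 18.7% of all genes were. Over all barcodes 1 was lower with DHA at 0 h and 1 at 1 h, Sec61b in both (-0.81 and -0.70), where 5.84% and 10.6% of all genes were lower. In cells without a UMI of Mki67 or Top2a 0 were higher for Veh.LPS.0 against Con (Edem1 at 0.50), where 9.31% of all genes were. In those cells the members lower with DHA were 1, 2 and 0 at 0, 1 and 4 h, where 3.02%, 3.26% and 2.86% of all genes were. They were Selenos (-0.61) at 0 h, and Herpud1 (-0.75) and Dnajc3 (-0.60) at 1 h. Without the 5% of cells highest for the gene 1 was lower with DHA at 0 h (Selenos, -0.59) and 1 at 1 h (Dnajc3, -0.60). With no filter on low genes 2 were higher for Veh.LPS.0 against Con (Ern1 added), and with a UMI required in 50% of cells 2 were higher at 4 h of LPS in DHA. The share of all genes was not counted without the highest cells or with these gene filters. Beside the calls named in the report, those lost for Veh.LPS.0 against Con were Pdia6 over all barcodes (-0.47), in thinned cells and relative to the median gene (-0.51), Pdia4 relative to the median gene (-0.58), Dnajc3 in cells without Mki67 or Top2a (-0.58), and Selenos there (-0.40), over all barcodes, under 10% mitochondrial UMIs and relative to the median gene (-0.51). At 4 h of LPS, Pdia4 in vehicle relative to the median gene (-0.53) and Sdf2l1 in DHA in cells without Mki67 or Top2a (-0.54) were within the limit. The cause of these shifts was not tested beyond what each alternative removes. Depth limits the low genes: Ern1, Eif2ak3, Syvn1 and Dnajb9 had means of 5.73 to 17.6 CPM.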

Other observations

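Cells rich in Hspa5 were described further. Cells with over 49 Hspa5 UMIs of 20000, the 95th percentile of Veh.LPS.0, made up 16.7% of Con, 4.88% of Veh.LPS.0, 7.16% of DHA.LPS.0, 12.9% of Veh.LPS.1, 11.1% of DHA.LPS.1, 26.2% of Veh.LPS.4 and 19.7% of DHA.LPS.4. They were chosen on Hspa5, so what they hold is a description and no test was made. Over the 7 libraries the mean of Dnajb9 in them was a median of 4.04 times that in the other cells, that of Creld2 3.46 times, of Pdia4 3.12 times and of Manf 3.06 times. Canx (1.23 times), Sec61b (1.26 times), Xbp1 (1.41 times) and Edem1 (1.08 times) differed little.

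Outside the 30 genes, Ddit3 was 3.03 times as high in these cells (2.28 to 11.5 over the libraries), and the division gene Mki67 was at 0.471 times (0.213 to 0.946). The macrophage marker Spi1 was at 0.949 times. In DHA.LPS.0 the 50 such cells held a mean of 9.12 Ddit3 UMIs of 20000 against 1.49 in the others, and 25.4 Manf UMIs against 5.01. Their median depth was 44329 UMIs against 47424 and their median mitochondrial share 6.81% against 7.52%. Among genes outside the 30, chosen after their values were seen, Spcs2, a signal peptidase subunit, ranked 11 by mean r with Hspa5 (0.366), Ddit3 ranked 12 (0.342) and Serp1 ranked 15 (0.295).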
